A study of Mus musculus with 8 samples.

Results

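The genes described here are 36 mouse genes that are widely used as markers of blood vessel endothelium or that encode transcription factors of endothelial cells. They were named from general knowledge of the cell type, but with earlier results of these data known, so their counts are a description and not a test of the list. They were matched by symbol to the 24963 genes of the expression table. All 36 were found, and all 36 passed the filter of a mean of at least 0.5 FPKM (fragments per kilobase of transcript, scaled to the mapped fragments of the library, a level per transcript length) that left 14323 genes for testing.

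Whole uteri of C57B6/J females were collected at gestation day 3.5 (GD3.5), from mice mated at 8 weeks of age, and 8 RNA-seq libraries were made. The control group, Nr2f2 f/f (4 libraries), carried floxed alleles of Nr2f2 and no Cre, so it is labelled WT although both groups carry the floxed alleles. The Nr2f2 d/d group (4 libraries) was Pgr Cre/+; Nr2f2 f/f, in which Cre knocked into the progesterone receptor gene Pgr removes Nr2f2 from Pgr-expressing cells and which therefore carries 1 intact Pgr allele. According to the methods the males were vasectomized, so that no embryo was present, and the comparison of d/d with f/f addresses what loss of the orphan nuclear receptor NR2F2 does to the uterine transcriptome.

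Endothelial cells line every blood vessel and hold the wall together with homophilic adhesion proteins such as VE-cadherin and PECAM1. They sense VEGF and angiopoietins through receptor tyrosine kinases, recruit blood cells with selectins, and keep their identity through ETS, SOX and bHLH transcription factors. In the uterus the vessels are remodelled in each reproductive cycle, and their permeability and growth accompany implantation. NR2F2 itself is known as a factor of venous endothelial identity, and the Pgr Cre allele acts where Pgr is expressed, so that loss within the endothelium itself was not measured in whole-uterus RNA.

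The targeted gene was lower in every d/d library. Nr2f2 stood at 25.3, 21.8, 25.7 and 23.5 FPKM in the f/f libraries and at 9.66, 9.42, 6.90 and 9.74 FPKM in the d/d libraries, with no overlap (log2 fold change of -1.39 with an SE of 0.118, adjusted p = 0.00549 by limma). The fragment totals implied by the steps between low FPKM values lay between 61450000 and 92650000 per library, with medians of 62350000 in f/f and 81000000 in d/d. At those totals 3 fragments over 1 kb of transcript correspond to 0.0324 to 0.0488 FPKM, a limit that covers counting error only, and all members but Sele averaged above 1 FPKM in both groups.

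Most of the pan-endothelial genes were less abundant in the Nr2f2 d/d uterus. The fitted log2 fold change was below 0 for 32 of the 36 members, where 53.3% of all genes tested were below 0, and the median over the members was -0.67 against -0.02 over all genes tested. At an adjusted p under 0.05 (limma, Benjamini-Hochberg over all genes tested), 14 members fell and 0 rose, where 1.53% of all genes were called lower, 1.09% higher and 2.62% in either direction. The 14 were Pecam1, Cdh5, Esam, Emcn, Kdr, Egfl7, Nos3, Rasip1, Arhgef15, Myct1, Erg, Fli1, Sox18 and Tal1. At the threshold of the methods, an unadjusted p under 0.05 with a change of at least 1.4-fold, 25 members were lower, where 4.1% of all genes were, and 1 member, Sox7, was higher, where 4.7% were (8.8% in either direction). The f/f and d/d ranges did not overlap for 23 members, each lower in d/d, where 9.91% of all genes were separated in that direction and 5.49% in the other. For these 23 the exact two-sided permutation test gave p = 0.0286, the smallest that 4 against 4 libraries allow, which became 0.186 after adjustment over all genes tested. In whole tissue, fewer endothelial cells and less of these RNAs per cell cannot be told apart.

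The summed level of the 36 genes was 819.9 to 1069 FPKM in the f/f libraries and 578.9 to 765.1 FPKM in the d/d libraries. Replicate 1 of f/f had the highest value of its group for 25 members (20.7% of all genes tested) and replicate 3 of d/d for 24 (33.1% of all genes tested). The 14 adjusted calls depended on single libraries. Of the 14, 2 were left without f/f replicate 1 (Esam and Rasip1), 2 without f/f replicate 4 (Cdh5 and Rasip1) and 8 without d/d replicate 4, where Ecscr was called as a ninth. There were 0 calls without d/d replicate 1 or without d/d replicate 2, where 25 and 26 members had an unadjusted limma p under 0.05, against 17.7% and 15.5% of all genes. In the full fit 29 members had one, against 21.2% of all genes. Over the 8 fits that each left out 1 library, 32 to 33 members stayed below 0, and the median ran from -0.57 to -0.74. In these fits 21 to 26 members were lower at the threshold of the methods (25 in the full fit, against 4.1% of all genes).

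**Figure D1:**
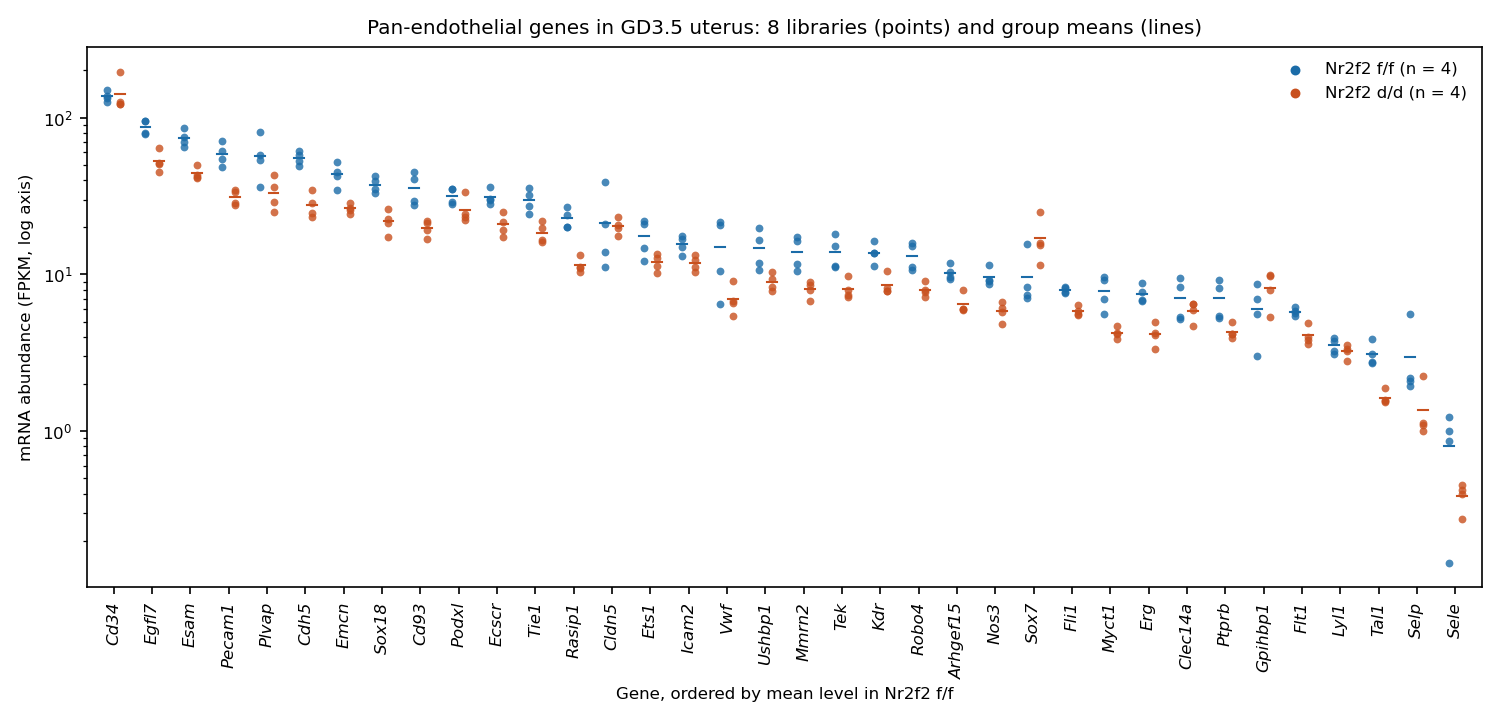
FPKM (log axis) of each of the 36 genes in the 4 Nr2f2 f/f libraries (blue) and the 4 Nr2f2 d/d libraries (orange), with a line at each group mean, ordered by the f/f mean. The d/d points lie below all f/f points for 23 genes, whereas Cd34, the most abundant gene, overlaps and Sox7 has the higher mean in d/d.

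Short stretches of promoter are shown for 4 of the 14 genes that fell, each picked because it holds a searched motif. Egfl7 and Erg have other windows, and these hold no searched motif in the 250 bases before their starts. The sequences are the 250 bases before a RefSeq transcription start on GRCm38.p6, written 5′ to 3′ on the strand of the gene, and capitals mark a searched motif on either strand. For Emcn (chr3:137340828-137341077, plus strand) and Egfl7 (chr2:26583615-26583864, plus strand, an internal start) the capitals are TGACCT, the reverse complement of the nuclear receptor half-site AGGTCA. For Erg (chr16:95459349-95459598, minus strand, an internal start) they are AGGTCA and then CTTATCT, the reverse complement of the GATA motif AGATAAG. For Kdr (chr5:75978456-75978705, minus strand) they are TTCCGG, the reverse complement of the ETS motif CCGGAA.
Emcn: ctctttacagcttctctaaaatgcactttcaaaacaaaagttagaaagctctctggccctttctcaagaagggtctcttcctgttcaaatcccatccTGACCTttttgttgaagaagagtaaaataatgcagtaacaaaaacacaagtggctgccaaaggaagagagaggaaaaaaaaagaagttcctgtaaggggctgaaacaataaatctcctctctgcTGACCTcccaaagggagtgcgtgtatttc
Egfl7: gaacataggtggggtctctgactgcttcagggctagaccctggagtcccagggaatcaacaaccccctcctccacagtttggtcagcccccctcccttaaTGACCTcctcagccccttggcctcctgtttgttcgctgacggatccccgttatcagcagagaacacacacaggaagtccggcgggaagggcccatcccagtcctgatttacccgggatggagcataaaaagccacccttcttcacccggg
Erg: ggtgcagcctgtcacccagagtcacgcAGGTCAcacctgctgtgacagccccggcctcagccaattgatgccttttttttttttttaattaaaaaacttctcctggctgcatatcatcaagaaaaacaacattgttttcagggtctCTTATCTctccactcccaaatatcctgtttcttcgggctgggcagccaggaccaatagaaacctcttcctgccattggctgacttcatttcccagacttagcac
Kdr: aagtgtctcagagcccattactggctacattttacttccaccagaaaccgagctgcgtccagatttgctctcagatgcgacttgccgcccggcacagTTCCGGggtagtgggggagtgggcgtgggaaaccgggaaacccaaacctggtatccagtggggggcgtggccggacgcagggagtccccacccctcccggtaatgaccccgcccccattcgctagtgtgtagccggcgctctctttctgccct

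Promoter windows of 250 bases before to 50 bases after the start were given for 18 of the 36 members (23 windows). AGGTCA or its reverse complement occurred for 5 of the 18 genes (27.8%; Egfl7, Emcn, Erg, Robo4 and Selp), where 14.9% of the 10978 tested genes with a window held it. AGATAAG occurred for 3 (16.7%; Erg, Myct1 and Tek) against 2.28%, CCGGAA for 2 (11.1%; Kdr and Lyl1) against 29.6%, and the SOX motif ACAATGG for 0 against 2.53%. No searched motif contains another, all were looked for on both strands, and a match of letters is a description of the window and not a bound site.

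Among the 5 genes of junctions and surface adhesion, 3 fell and 2 did not pass the test. Cdh5, which encodes VE-cadherin of the adherens junction (chr8:104101625-104144511, plus strand, mm10), had the lowest fold change of all 36. Its level was 61.0, 58.2, 53.1 and 49.1 FPKM in f/f and 24.6, 23.2, 34.6 and 28.6 FPKM in d/d. The groups were far apart, with a gap between 34.6 and 49.1 FPKM, and the log2 fold change was -0.99 (SE 0.132, adjusted p = 0.0149 by limma), so that the d/d mean was 50.2% of the f/f mean.

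Pecam1 encodes the adhesion molecule PECAM1, or CD31 (chr11:106654217-106750628, minus strand). It was measured at 70.9, 61.3, 48.4 and 54.5 FPKM in f/f and at 27.6, 28.6, 33.6 and 34.4 FPKM in d/d, a change from 58.8 ± 9.62 to 31.0 ± 3.46 FPKM (SD, n = 4 each). The groups did not overlap, and the log2 fold change was -0.90 (SE 0.130, adjusted p = 0.0192 by limma). Esam, an adhesion molecule of endothelial tight junctions, was the third of these genes that fell. Its FPKM were 85.7, 70.2, 65.3 and 75.7 in f/f and 43.3, 41.5, 49.7 and 42.1 in d/d, a narrow d/d range below every f/f library (log2 fold change -0.74, SE 0.101, adjusted p = 0.0151 by limma).

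Claudin-5, the sealing protein of endothelial tight junctions encoded by Cldn5, had a level in d/d within the f/f range. Its FPKM spread from 11.2 to 38.9 in f/f (20.8, 38.9, 13.9 and 11.2) and only from 17.6 to 23.3 in d/d (17.6, 19.8, 20.6 and 23.3). The log2 difference of 0.10 had a wide 95% interval, from -0.69 to 0.88 (adjusted p = 0.897 by limma). The means of FPKM, 21.2 in f/f and 20.3 in d/d, went the other way. The log2 difference was 0.44 without f/f replicate 2 and 0.68 without f/f replicates 1 and 2. Its sign turned without f/f replicate 3 (-0.05) or without f/f replicate 4 (-0.15). Icam2, a ligand of leukocyte integrins, was at 17.6, 13.1, 14.9 and 16.8 FPKM in f/f and 12.5, 11.1, 13.3 and 10.4 FPKM in d/d. The ranges touched at 13.1 and 13.3 FPKM, and the log2 fold change of -0.38 did not pass (adjusted p = 0.111 by limma).

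Of the 3 sialomucins, heavily glycosylated proteins of the luminal surface, 1 fell. Endomucin (Emcn), which is typical of capillaries and veins, fell from 52.3, 42.5, 34.4 and 44.7 FPKM in f/f to 26.7, 25.8, 28.5 and 24.3 FPKM in d/d (log2 fold change -0.70, SE 0.123, adjusted p = 0.0302 by limma). Podxl was at 35.2, 28.0, 28.9 and 35.3 FPKM in f/f against 23.1, 22.2, 33.6 and 24.5 FPKM in d/d. Only d/d replicate 3 reached into the f/f range, and the log2 fold change was -0.31 (adjusted p = 0.274 by limma). Cd34, which stromal and progenitor cells express as well, was the most abundant member. It stood at 133, 126, 138 and 150 FPKM in f/f and at 122, 126, 197 and 122 FPKM in d/d. The log2 difference was 0.02, with a 95% interval from -0.35 to 0.39 (adjusted p = 0.952 by limma). Its sign changed to -0.15 without d/d replicate 3, to -0.11 after quantile normalization, to -0.02 without f/f replicate 2, to -0.05 without f/f replicates 1 and 2 and to -0.18 in the 6 libraries whose numbers in the table's column names occur in both groups, which share a column number.

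The genes of leukocyte and platelet capture varied widely between f/f libraries, and 0 of the 3 passed the adjusted threshold in limma (2 had an unadjusted p under 0.05). Von Willebrand factor (Vwf), which is stored in Weibel-Palade bodies and tethers platelets, was at 21.5, 20.8, 10.6 and 6.51 FPKM in f/f and at 6.60, 5.40, 6.80 and 9.08 FPKM in d/d. Replicates 1 and 2 of f/f were high, replicate 4 lay among the d/d libraries, and the log2 fold change was -0.91 (SE 0.366, unadjusted p = 0.0371, adjusted p = 0.209 by limma). P-selectin (Selp), kept in the same granules, was at 5.62, 2.19, 2.08 and 1.93 FPKM in f/f and at 1.10, 1.00, 1.13 and 2.26 FPKM in d/d (log2 fold change -0.81, adjusted p = 0.211 by limma). 1 library in each group stood above its others, and without f/f replicate 1 the estimate moved to -0.50. E-selectin (Sele), which is made by activated endothelium, was the scarcest member at 0.145 to 1.22 FPKM in f/f and 0.276 to 0.452 FPKM in d/d. Its f/f replicate 2 was below every d/d library, and its log2 fold change was -0.48 (adjusted p = 0.380 by limma). Over the 8 fits without 1 library the estimate ran from -0.79 to -0.31. It was -0.79 without f/f replicate 2, where the adjusted p was 0.0356 by limma.

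Of the receptor tyrosine kinases and the phosphatase that acts on them, 1 of 5 was called and 4 of 5 were lower at the threshold of the methods. Kdr, the main signalling receptor for VEGF-A, was at 16.2, 13.6, 11.3 and 13.8 FPKM in f/f and at 8.24, 7.79, 10.5 and 7.89 FPKM in d/d. The groups were separate by less than 1 FPKM, because of d/d replicate 3, and the log2 fold change was -0.64 (SE 0.130, adjusted p = 0.0457 by limma). Flt1, the receptor that also acts as a VEGF trap, had 5.42 to 6.18 FPKM in f/f and 3.59 to 4.92 FPKM in d/d. Its log2 fold change of -0.46 was smaller than 1.4-fold and its adjusted p was 0.0529 by limma.

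Tek, the angiopoietin receptor TIE2, was at 18.2, 15.2, 11.1 and 11.3 FPKM in f/f and at 7.13, 7.34, 7.95 and 9.74 FPKM in d/d (log2 fold change -0.74, adjusted p = 0.0654 by limma). Its partner Tie1 was at 35.7, 32.3, 24.3 and 27.2 FPKM in f/f and at 16.5, 16.0, 21.8 and 19.7 FPKM in d/d (log2 fold change -0.67, adjusted p = 0.0525 by limma). Ptprb, or VE-PTP, the phosphatase of TIE2 and VE-cadherin, was at 8.16, 9.28, 5.46 and 5.24 FPKM in f/f and at 4.18, 3.93, 4.20 and 4.96 FPKM in d/d (log2 fold change -0.61, adjusted p = 0.115 by limma). None of these 3 overlapped between groups, and in each of them f/f replicates 1 and 2 were the 2 highest libraries.

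The other surface receptors had 0 of 4 adjusted calls in limma, and 3 of the 4 had adjusted p-values between 0.0501 and 0.0529. Robo4, a guidance receptor that stabilizes vessels, was at 15.1, 15.9, 10.7 and 11.1 FPKM in f/f and at 7.71, 7.15, 9.14 and 7.93 FPKM in d/d (log2 fold change -0.68, adjusted p = 0.0517 by limma). Cd93, a C-type lectin-like receptor that binds MMRN2, was at 40.3, 44.8, 27.6 and 29.5 FPKM in f/f and at 21.4, 16.9, 22.0 and 19.3 FPKM in d/d (log2 fold change -0.80, adjusted p = 0.0501 by limma). Ecscr was at 36.2, 30.4, 27.9 and 29.8 FPKM in f/f and at 17.4, 19.3, 21.7 and 24.9 FPKM in d/d (log2 fold change -0.57, adjusted p = 0.0529 by limma). In these 3 genes the d/d range lay wholly below the f/f range. Clec14a, another lectin-like partner of MMRN2, was at 8.26, 9.45, 5.22 and 5.33 FPKM in f/f and at 6.44, 5.89, 4.68 and 6.49 FPKM in d/d. The difference in log2 level was -0.21 with a 95% interval from -0.68 to 0.25 (adjusted p = 0.577 by limma), and the d/d libraries mostly lay between the pairs of f/f libraries. The estimate was -0.07 without f/f replicate 2 and -0.33 without f/f replicate 3 or f/f replicate 4, -0.13 without f/f replicate 1 and -0.12 without d/d replicate 3, and it turned to 0.03 in the 6 libraries that share a column number and to 0.13 without f/f replicates 1 and 2.

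The RNAs of both secreted proteins were lower in each d/d library than in any f/f library. Egfl7, an extracellular matrix protein whose gene hosts the endothelial microRNA miR-126, was the second most abundant member. It was measured at 95.3, 79.0, 80.03 and 94.7 FPKM in f/f and at 44.9, 50.6, 63.6 and 51.3 FPKM in d/d, and it fell by 0.73 on the log2 scale (log2 fold change -0.73, SE 0.120, adjusted p = 0.0251 by limma). 11.2% of its annotated exon bases are shared with exons of other genes, and whether counting used strand is not given in the sources used here. Mmrn2, the matrix ligand of CD93 and CLEC14A, was at 16.4, 17.3, 11.7 and 10.5 FPKM in f/f and at 7.93, 6.80, 8.58 and 8.99 FPKM in d/d (log2 fold change -0.73, adjusted p = 0.0643 by limma).

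The microvascular genes had estimates of opposite sign, and neither passed the adjusted threshold. Plvap, which forms the diaphragms of fenestrae and caveolae, was at 80.8, 35.9, 53.9 and 57.4 FPKM in f/f and at 25.1, 28.9, 42.9 and 36.03 FPKM in d/d (log2 fold change -0.74, SE 0.254, adjusted p = 0.154 by limma). Replicate 2 of f/f, the lowest of its group, lay within the d/d range. Gpihbp1, which carries lipoprotein lipase across capillary endothelium, had 3.03 to 8.63 FPKM in f/f and 5.35 to 9.86 FPKM in d/d. Its log2 difference of 0.46 had a 95% interval from -0.24 to 1.17 (adjusted p = 0.414 by limma), and without f/f replicate 2 it was 0.20.

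Of the intracellular signalling genes 4 of 5 were called. Rasip1, a RAS-interacting protein needed for vessel lumens, was at 27.0, 20.1, 20.1 and 24.1 FPKM in f/f and at 10.4, 10.9, 13.4 and 11.2 FPKM in d/d. Its d/d mean was 50.3% of the f/f mean (log2 fold change -0.96, SE 0.120, adjusted p = 0.0131 by limma), and it was called in 6 of the 8 fits without 1 library, more than any other member. Because 42.9% of its annotated exon bases are shared with other genes, among them Izumo1 on the same strand, part of its level could come from those genes. Nos3, the endothelial nitric oxide synthase, was at 11.6, 8.64, 9.21 and 9.05 FPKM in f/f and at 4.82, 5.75, 6.67 and 6.14 FPKM in d/d (log2 fold change -0.67, adjusted p = 0.0335 by limma), and it shares 32.3% of its exon bases with genes on the opposite strand, among them Atg9b.

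Arhgef15, a guanine nucleotide exchange factor, was at 11.8, 9.60, 9.38 and 10.3 FPKM in f/f and at 6.02, 6.03, 7.92 and 5.92 FPKM in d/d (log2 fold change -0.63, adjusted p = 0.0335 by limma). The d/d values were tight apart from replicate 3. Myct1 was at 9.67, 9.21, 5.55 and 6.996 FPKM in f/f and at 3.89, 4.23, 4.66 and 4.16 FPKM in d/d (log2 fold change -0.79, adjusted p = 0.0491 by limma), and its call was kept in 1 of the 8 fits that left out a library. Ushbp1, the member without an adjusted call, was at 16.5, 19.6, 11.8 and 10.7 FPKM in f/f and at 8.37, 7.79, 10.3 and 9.30 FPKM in d/d (log2 fold change -0.65, adjusted p = 0.109 by limma).

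The 7 transcription factors had 4 calls, in each case lower, and also held the member with the highest fold change. ERG and FLI1 are ETS factors that maintain endothelial identity. Erg was at 8.80, 7.72, 6.84 and 6.75 FPKM in f/f and at 4.25, 3.33, 4.95 and 4.11 FPKM in d/d, or 7.53 ± 0.951 against 4.16 ± 0.662 FPKM (SD, n = 4 each; log2 fold change -0.79, SE 0.128, adjusted p = 0.0248 by limma). Fli1 was at 8.37, 7.75, 7.57 and 8.23 FPKM in f/f and at 5.84, 5.58, 5.49 and 6.35 FPKM in d/d. Its SE of 0.0727 was the smallest of the 14 called genes, and its log2 fold change of -0.43, below 1.4-fold, passed the test ( adjusted p = 0.0281 by limma). Fli1 and Ets1 are also expressed by blood cells. Ets1 was at 21.9, 21.0, 12.2 and 14.8 FPKM in f/f and at 11.4, 10.2, 13.4 and 12.7 FPKM in d/d (log2 fold change -0.50, adjusted p = 0.190 by limma), with f/f replicate 3 inside the d/d range.

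SOX7 and SOX18 are closely related SOXF factors of vascular development, and their estimates had opposite signs, a difference that was not tested. Sox18 was at 42.4, 39.2, 33.1 and 35.1 FPKM in f/f and at 17.4, 22.6, 26.2 and 21.3 FPKM in d/d, a fall without overlap (log2 fold change -0.77, SE 0.131, adjusted p = 0.0281 by limma). Sox7 was at 15.7, 7.37, 7.04 and 8.30 FPKM in f/f and at 15.4, 11.6, 15.9 and 25.1 FPKM in d/d. Its log2 difference was 0.81 (SE 0.296, 95% interval 0.13 to 1.49), which passed the threshold of the methods at an unadjusted p of 0.0248 but had an adjusted p of 0.177 by limma. It no longer passed the threshold of the methods without f/f replicate 2, 3 or 4 or without d/d replicate 4. Replicate 1 of f/f was about as high as d/d replicates 1 and 3, and over the 8 fits without 1 library the Sox7 estimate ran from 0.61 to 1.06 with adjusted p-values from 0.108 to 0.283.

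TAL1 and LYL1 are related bHLH factors shared by endothelial and blood-forming cells. Tal1 fell from 3.88, 3.12, 2.75 and 2.72 FPKM in f/f to 1.53, 1.55, 1.88 and 1.58 FPKM in d/d, to 52.5% of the f/f mean (log2 fold change -0.75, SE 0.121, adjusted p = 0.0240 by limma). Lyl1 had 3.09 to 3.95 FPKM in f/f and 2.79 to 3.55 FPKM in d/d. Its log2 difference was -0.11 with a 95% interval from -0.35 to 0.13 (adjusted p = 0.588 by limma).

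**Figure D2:**
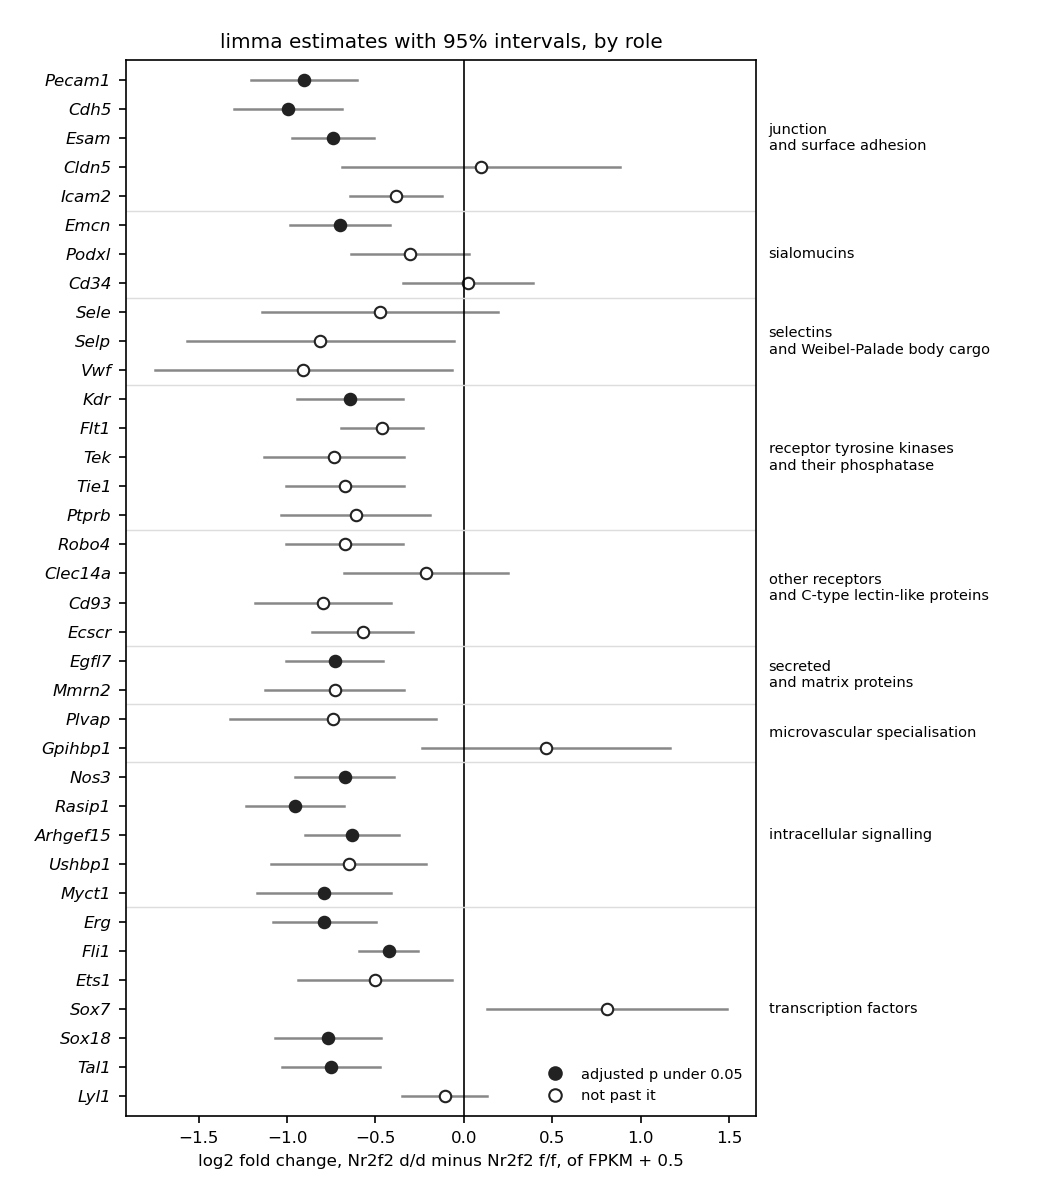
Fitted log2 fold change (Nr2f2 d/d minus Nr2f2 f/f, of FPKM + 0.5) of the 36 genes with 95% intervals, grouped by role, with filled points for an adjusted p under 0.05. All 14 filled points lie left of 0, and Sox7, at 0.81, lies farthest to the right.

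**Figure D3:**
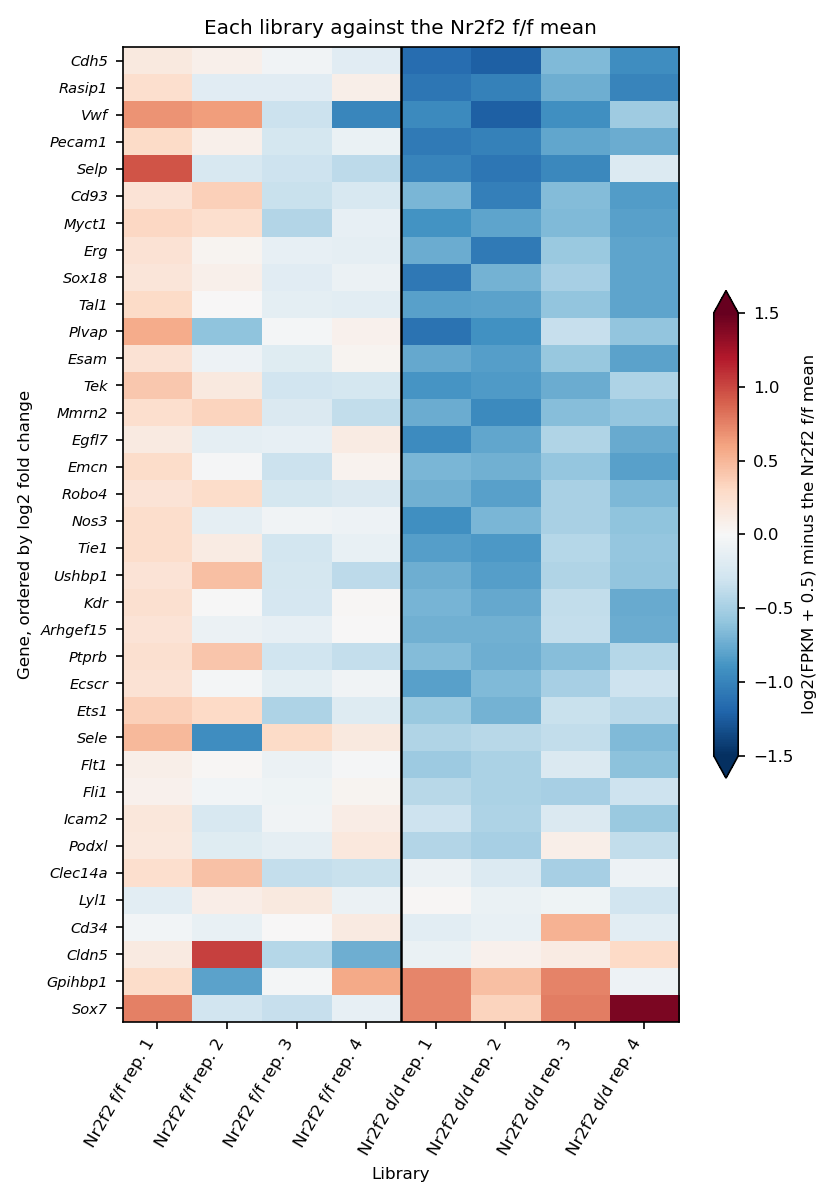
Log2(FPKM + 0.5) of each of the 36 genes (rows, ordered by fold change) in each of the 8 libraries (columns) minus the f/f mean of that gene, with red above and blue below it. The d/d columns are mostly blue, palest in replicate 3, and the rows of Cd34, Cldn5, Gpihbp1 and Sox7 at the foot are not.

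A second list of 30 endothelial-enriched genes that are not members had a median of similar size. Of the 29 that were measured and tested, 28 had a fold change below 0 (53.3% of all genes). At the adjusted threshold 5 fell (1.53% of all genes) and 0 rose (1.09%), and that median was -0.64 on the log2 scale. The called genes included Procr, the endothelial protein C receptor, with 44.2 to 53.5 FPKM in f/f and 16.6 to 30.1 FPKM in d/d (log2 fold change -1.28, adjusted p = 0.0189 by limma). Hspa12b (-0.60, adjusted p = 0.0192 by limma) and the adhesion receptor gene Adgrl4 (-0.97, adjusted p = 0.0198 by limma) fell as well, as did She and Heg1. These 5 calls dropped to 0 without f/f replicate 1, f/f replicate 4, d/d replicate 1 or d/d replicate 2. At the threshold of the methods 14 to 19 of the genes were lower in each fit without 1 library (18 in the full fit, against 4.1% of all genes).

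Among the ligands and coreceptors of the VEGF and TIE receptors, 1 of 10 tested genes was called. This was Nrp2, a VEGF coreceptor, which fell from 4.86 to 5.39 FPKM in f/f to 2.95 to 3.19 FPKM in d/d (log2 fold change -0.65, adjusted p = 0.00795 by limma). For the related Nrp1 the estimate was -0.30 (adjusted p = 0.175 by limma). Placental growth factor (Pgf) was at 23.4 and 26.8 FPKM in f/f replicates 1 and 2 but at 5.77 and 6.88 FPKM in replicates 3 and 4, against 2.67 to 9.29 FPKM in d/d, and did not pass (log2 fold change -1.395, adjusted p = 0.208 by limma). Vegfa, the ligand of KDR and FLT1, had 22.1 to 35.02 FPKM in f/f and 27.3 to 42.7 FPKM in d/d (adjusted p = 0.414 by limma). It lies outside the rule for named genes and was chosen as the principal ligand after its values were seen.

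The estimates on the lists of arterial, venous and lymphatic genes were of different sign. Of 10 arterial genes 6 were below 0 and 4 above, with 0 adjusted calls and a median of -0.26. An unadjusted limma p under 0.05 was reached by 6 of them (21.2% of all genes tested), among them Gja4 (-0.62, adjusted p = 0.0643), the netrin receptor gene Unc5b (0.75, adjusted p = 0.0924) and Sema3g (-0.58, adjusted p = 0.155). All 8 genes of the venous list were below 0, with a median of -0.38, or -0.33 over the 7 other than the deleted Nr2f2. Whether the RNA of these genes, among them Bgn, Mgp and Tmem100, came from veins was not tested. Besides the targeted Nr2f2 the apelin receptor gene Aplnr fell, from 39.0 to 71.0 FPKM in f/f to 16.4 to 27.8 FPKM in d/d (log2 fold change -1.17, adjusted p = 0.0328 by limma). That call was kept in 2 of the 8 fits without 1 library, those without f/f replicate 2 and without d/d replicate 3. For Bgn the value was -0.44 (adjusted p = 0.228 by limma). The 6 lymphatic genes tested were all above 0 (median 0.39) with 0 adjusted calls in limma and 1 unadjusted p under 0.05, a share below the 21.2% of all genes, that of Reln (0.50, adjusted p = 0.198). Mmrn1 (0.51, adjusted p = 0.404) and Pdpn (0.34, adjusted p = 0.429) overlapped between groups, the summed lymphatic level was 14.99 to 21.9 FPKM in f/f and 23.7 to 30.2 FPKM in d/d, and Ccl21a was listed at 0 in every library. Without Itga9 (0.43, adjusted p = 0.609, named after its values were seen) the lymphatic sums overlapped, at 11.02 to 18.4 FPKM in f/f and 14.2 to 21.5 FPKM in d/d.

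Other cell types of the uterus were present in all libraries. Pericyte genes, which mark the cells wrapped around capillaries, had a median of -0.32 over 11 genes with 1 call. This was Rgs5, which fell from 132 to 162 FPKM in f/f to 84.0 to 101 FPKM in d/d (log2 fold change -0.67, adjusted p = 0.0154 by limma). Kcnj8 (-0.44, adjusted p = 0.103) and Cspg4 (-0.39, adjusted p = 0.181) did not pass in limma, and Anpep, which epithelial and stromal cells can express too and which was named after its values were seen, went from 67.8 to 395 FPKM in f/f to 347 to 536 FPKM in d/d (1.15, adjusted p = 0.222). The summed pericyte level was 320.6 to 635.3 FPKM in f/f and 556.7 to 715.7 FPKM in d/d with Anpep, and without it 240.4 to 298.5 FPKM in f/f and 179.8 to 209.4 FPKM in d/d. That separation rested on Rgs5, since the 9 genes without Anpep and Rgs5 summed to 108 to 139 FPKM in f/f and 95.8 to 119 FPKM in d/d, with overlap. Higd1b (0.05, adjusted p = 0.902) and Cox4i2 (0.29, adjusted p = 0.344) were above 0 too, and the Rgs5 call was lost without f/f replicate 1, d/d replicate 1 or d/d replicate 2.

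Stromal, epithelial and mesothelial markers were mixed in sign. Of 9 stromal genes 2 rose, Dcn (log2 fold change 0.79, adjusted p = 0.0192 by limma) and Col1a2 (1.46, adjusted p = 0.0484 by limma), while Col1a1 had 1.67 (adjusted p = 0.0626). Another 4 were below 0, namely Vim (-0.66, adjusted p = 0.113), Pdgfra (-0.20, adjusted p = 0.577), Hoxa11 (-0.18, adjusted p = 0.459) and Hoxa10 (-0.09, adjusted p = 0.752), and Lum was above it (0.55, adjusted p = 0.173), all 5 named after their values were seen. The summed stromal level was 1771 to 2079 FPKM in f/f against 2552 to 4971 FPKM in d/d, a difference carried by Dcn and the collagens. The 5 other genes summed to 646.01 to 828.5 FPKM in f/f and 564.7 to 630.8 FPKM in d/d, and without Vim the remaining 4 overlapped between groups (269.1 to 370.3 against 292.7 to 399.6 FPKM). The Dcn call was lost without f/f replicate 1 or 4 or d/d replicate 1 or 2, and the Col1a2 call without any 1 of the f/f replicates, without d/d replicate 1 or 2, and under other filters, quantile normalization and robust estimation. The 9 epithelial genes had 1 call, Krt8 (0.74, adjusted p = 0.00829 by limma), with Krt19 at 1.396 (adjusted p = 0.0559) and Cdh1 at 0.30 (adjusted p = 0.231), but a median of only 0.06. Their summed level was 740.2 to 778.7 FPKM in f/f and 902.0 to 1040.04 FPKM in d/d, and without Krt19 the groups overlapped (646.4 to 739.8 against 696.1 to 914.4 FPKM). The 6 mesothelial genes had 1 call, Msln (0.80, adjusted p = 0.0398 by limma), which was kept in 1 of the 8 fits without 1 library (that without f/f replicate 3) and lost with no filter, with Upk3b at 0.66 (adjusted p = 0.106), and Wt1 was the 1 below 0 (-0.31, adjusted p = 0.257). Their sum was 130.8 to 167.6 FPKM in f/f and 212.9 to 306.4 FPKM in d/d, but without Krt19, which is on the epithelial list too, it was 69.6 to 95.8 and 87.2 to 109 FPKM, with overlap.

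Of 13 leukocyte genes tested, 12 were above 0, and the general leukocyte gene Ptprc was not (-0.03, adjusted p = 0.951 by limma). Cd3d of T cells rose from a low level, 0.305 to 0.444 FPKM in f/f and 0.822 to 1.09 FPKM in d/d (0.74, adjusted p = 0.0231 by limma), a call lost without f/f replicate 1 or 4 or d/d replicate 1 or 2. S100a8 of neutrophils had 2.16 (adjusted p = 0.0689) and Cd3e 0.65 (adjusted p = 0.0895). The leukocyte sum was 192.1 to 343.4 FPKM in f/f and 330.3 to 559.6 FPKM in d/d, with overlap. Lyz2 made up much of it, at 92.9 to 207 FPKM in f/f and 185 to 367 FPKM in d/d, and the sum without Lyz2 was not computed. Ptprc and Lyz2 were named after their values were seen. Smooth muscle genes had 0 calls of 8 in limma, and 0 at an unadjusted p under 0.05, with a median of 0.14 and sums of 1297 to 1825 FPKM in f/f and 1041 to 2561 FPKM in d/d. Those with the smallest p were Cnn1 (0.38, adjusted p = 0.449), Lmod1 (0.25, adjusted p = 0.619) and Smtn (0.17, adjusted p = 0.651).

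Few platelet and red cell genes could be tested, so blood left in the vessels was not measured by them. The platelet genes Pf4 (-0.09, adjusted p = 0.813 by limma) and Itga2b (0.10, adjusted p = 0.839 by limma) were the 2 of 8 that passed the filter, and the platelet sum ran from 7.05 to 9.63 FPKM in f/f and from 7.05 to 9.64 FPKM in d/d. Alas2 of red cell precursors was the 1 of 7 erythroid genes tested (-0.54, adjusted p = 0.390 by limma). The 4 globin genes were listed at 0 in all libraries, for which the sources used here give no reason. What part these other cell types had in the lower share of endothelial RNA was not tested. Relative to a fixed total per library, more RNA of other cells and less endothelial RNA cannot be told apart.

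**Figure D4:**
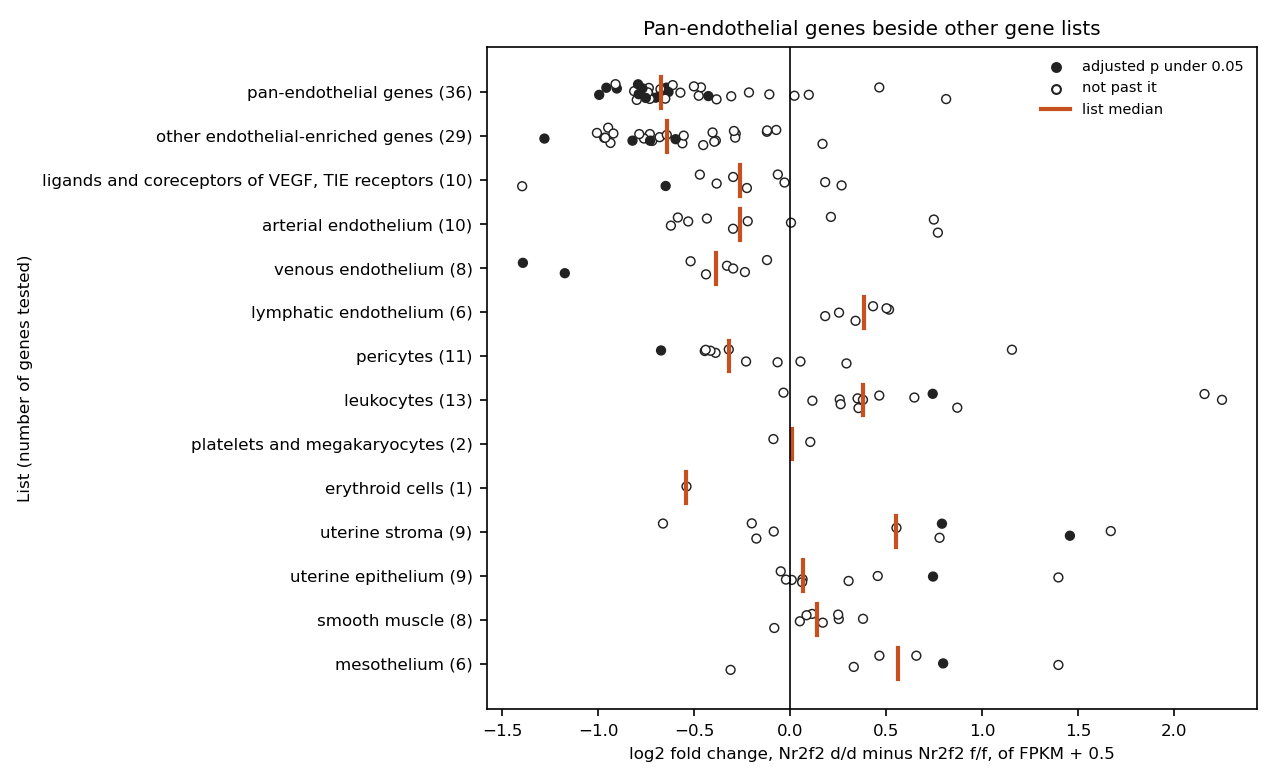
Fitted log2 fold change (Nr2f2 d/d minus Nr2f2 f/f, of FPKM + 0.5) of each tested gene of the 36 pan-endothelial genes and of 13 further lists, with filled points for an adjusted p under 0.05 and an orange line at each list median. The first 2 lists have medians of -0.67 and -0.64, while the leukocyte, stromal, mesothelial and lymphatic medians lie at 0.38 to 0.56.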

How the data were processed

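Whole-uterus RNA was sequenced in 8 libraries (4 Nr2f2 f/f and 4 Nr2f2 d/d), made with the TruSeq RNA v2 kit, and groups follow the genotype in the labels. The authors deposited 1 table of FPKM per gene, which are not counts. The submitters' processing notes list cutadapt 1.12, STAR 2.5.2b, featureCounts 1.5.0-p1 and Cufflinks 2.0.2 with mm10. The FPKM formula and the strand setting are not given in the sources used here. The methods tested read counts with DESeq2, and such counts were not used here.

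FPKM were taken to log2 after adding 0.5, so that fold changes of low genes are understated. The 14323 genes whose mean FPKM reached 0.5 were fitted with limma 3.58.1 in R 4.3.3 (lmFit, eBayes with a trend, two-sided) and adjusted by Benjamini-Hochberg. Exact permutation tests used all 70 arrangements of the 8 libraries. The sources used here do not say that each library is a separate mouse, so p-values measure the spread between libraries, which may be technical. On simulated data with 200 of 14323 genes changed, 84 of 100 changed 2-fold and 95 of 100 changed 4-fold were recovered, and 14 of the 193 calls were unchanged genes. Each gene was drawn independently, changes were placed only in genes above a set level, and no shift was shared by the genes of a library. Every member that fell did so by less than 2-fold, so these rates do not carry over to the calls of members.

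Depth was estimated from 889 single-exon genes, whose low FPKM were whole multiples of 1 fragment, within 0.1 fragments, for 86.3% to 89.2% of values (16.2% to 17.1% at other totals). Loci are those of GENCODE vM21 on mm10, and promoters are those of RefSeq on GRCm38.p6. No protein sequences were used. Levels relative to Pecam1 and Cdh5 were computed but are not reported, since they repeat the fold changes.

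The members and all lists were chosen with earlier results of these data known. Full values were planned for members past either threshold and the 5 most abundant others, and for the up to 3 genes of smallest p in each other list. Alternatives were other added values, filters and scalings, eBayes without the trend or with robust estimation, replicate blocks and leaving out each library. Added after the data were seen were the fit without f/f replicates 1 and 2, the unblocked fit of 6 libraries, and list sums or medians without the genes named beside them. 1 gene of the lists, Exoc3l2, was not used here.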

Additional observations from a re-analysis of the deposited data

Results flagged for a closer look

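In the 142 groups of 4 libraries formed by 71 named genes, 11 had 1 library far from the other 3 by Dixon's criterion, which flags about 5% of groups by chance. 7 of the 11 were in pan-endothelial genes, 2 of them in Selp. In these genes d/d replicate 3 was high for Cd34 (197 FPKM, the others 122 to 126), Kdr (10.5 FPKM, the others 7.79 to 8.24), Arhgef15 (7.92 FPKM, the others 5.92 to 6.03) and Tal1 (1.88 FPKM, the others 1.53 to 1.58). Replicate 1 of f/f was high for Selp (5.62 FPKM, the others 1.93 to 2.19) and Sox7 (15.7 FPKM, the others 7.04 to 8.30), and d/d replicate 4 was high for Selp (2.26 FPKM, the others 1.00 to 1.13).

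Outside the list, Procr stood at 30.1 FPKM in d/d replicate 4 (the others 16.6 to 17.98), Mmrn1 at 4.23 FPKM in f/f replicate 2 (the others 1.32 to 1.69) and Dcn at 673 FPKM in d/d replicate 2 (the others 713 to 719). The targeted gene Nr2f2 was lowest, at 6.90 FPKM, in d/d replicate 3 (the others 9.42 to 9.74), the d/d library with the highest value of 24 members and of 33.1% of all genes tested.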

How the results depend on the processing

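Under 8 alternatives of added value, filter, scaling and variance model, 12 to 15 members were called and 32 or 33 were below 0 (31 of the 35 with a mean of at least 1 FPKM). Leaving out 1 library at a time, the calls ranged from 42 to 348 genes (375 in the full fit), 0 to 13 members, 0 to 7 of the other endothelial genes and 3 to 15 genes of the other lists (14 in the full fit). Without f/f replicates 1 and 2 together, which were the highest for most members, 24 genes, 0 members, 0 other endothelial genes and 1 gene of the other lists were called by limma. In that fit 28 members had an unadjusted p under 0.05 (15.3% of all genes), and the median was -0.47. At the threshold of the methods 16 members were lower and 2 higher (25 and 1 in the full fit, against 4.1% and 4.7% of all genes).

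The replicate numbers did not pair the libraries. Same-numbered libraries had correlations of deviations of -0.20, -0.17, 0.05 and -0.04 by the titles, and -0.20, 0.15 and -0.04 by the table's column names, which number the libraries differently. With a replicate block by the titles limma called 1 gene, 0 members, 0 other endothelial genes and 0 of the other lists, with 26 members at an unadjusted p under 0.05 (17.3% of all genes), and with a block by the column names (6 libraries) 0 of each, with 27 members at that level (22.3% of all genes). The same 6 libraries without the block gave 444 genes and 15 members. No called fold change turned sign. Depth was not the limit for the members: for Sele, the scarcest, 3 fragments are worth 0.0111 to 0.0168 FPKM.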

Other observations

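Across the 36 genes the level in f/f ranged from 0.808 FPKM for Sele to 137 FPKM for Cd34. Besides Cd34, the most abundant were Egfl7 (87.3 FPKM), Esam (74.2 FPKM), Pecam1 (58.8 FPKM), Plvap (57.0 FPKM) and Cdh5 (55.3 FPKM). The ranges of neighbours among these 5 genes overlapped, with SDs of 8.93, 8.75, 9.62, 18.4 and 5.27 FPKM over 4 libraries. Among the transcription factors Sox18 was the most abundant in f/f (37.4 ± 4.16 FPKM) and Tal1 the scarcest (3.12 ± 0.537 FPKM, SD, n = 4 each).

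In d/d the 2 SOXF genes were closer to each other in level, with 16.98 ± 5.75 FPKM for Sox7 and 21.9 ± 3.61 FPKM for Sox18, against 9.60 ± 4.09 and 37.4 ± 4.16 FPKM in f/f (SD, n = 4 each). In d/d replicate 4 Sox7 (25.1 FPKM) was above Sox18 (21.3 FPKM), and in the other 7 libraries it was below it.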
